A study of Nothobranchius furzeri and Aphyosemion australe and Iconisemion striatum with 145 samples.

Results

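The genes described here are homeobox genes from a set list of families outside the Hox clusters, together with Pax genes. They are genes of the African turquoise killifish, an annual fish whose embryos can pause development in diapause. They were chosen by row name alone, as every row whose symbol begins with the name of 1 of these families, which gave 97 of the 25122 rows in the count table of this species. Families outside the list, Cdx, Meis and Pbx among them, were not included, so the 97 rows are not every non-Hox homeobox gene. The rule itself used names and no measured value, but it was set with earlier results of these data known. All 97 members had at least 1 count, as did 24063 of all 25122 rows.

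The study sequenced RNA from embryo bodies of 3 killifish species at the pre-diapause stage, roughly a day before the heartbeat begins. The 4 African turquoise killifish libraries used here, called libraries 1 to 4, each came from a pool of 8 to 10 embryos with 15 to 22 somites and a Kupffer's vesicle, the ciliated organ that sets left and right in fish embryos. The embryos came from the first clutches of young parents and most were expected to skip diapause. They carried no transgene and received no treatment. Dissection removed the yolk, the enveloping layer (the outermost epithelium) and the chorion. The 6 lyretail and 5 red-striped killifish libraries were counted on features without gene names and are not used here. The series also lists African turquoise killifish libraries from wild-type, control and transcription factor knockout embryos, in diapause and in development. Their counts were not at hand and are not used either. The values described here therefore form a single group, with no contrast between conditions.

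Homeobox genes encode transcription factors that bind DNA through a homeodomain, a fold of helices of which the last reads the base sequence. Pax proteins bind through a paired domain, and only some of them carry a full homeodomain as well. In a somite-stage vertebrate embryo these factors divide the body into territories, since each neural segment, somite compartment, pharyngeal arch and organ field expresses its own combination. Most of them are read in a small share of the embryo's cells, so a level measured in a whole body mixes the number of cells in a territory with the RNA of the gene in each cell. In bulk libraries, fewer cells of a type and less RNA per cell cannot be told apart.

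The libraries held 25985703, 41191533, 33932167 and 29822933 counts. Levels are given as counts per 1000000 counts of the library (CPM), which are not divided by gene length. The level of a gene is therefore compared between libraries. List sums, shares of a sum, medians, CPM limits and the choice of members by mean CPM do set genes of unlike length together. They do not show which gene has more RNA. Among rows with 1 to 20 counts, even counts made up 61.9% to 74.3% of the values in each library, a property of the deposited counts whose cause was not tested. Markers of other tissues were present and unequal. The enveloping layer and periderm list, with 2 of its 8 genes in the table, summed to 191.1 to 512.3 CPM, nearly all of it epcam. The yolk and liver-type list (2 of 8) summed to 5.07 to 10.7 CPM. The blood list (3 of 8) summed to 58.03 to 154.9 CPM, most of it lmo2, while slc4a1 was at 0.115 to 0.268 CPM. Blood was not among the tissues that dissection removed. Among the other lists, the neural list (6 of 7 genes in the table) summed to 223.1 to 353.4 CPM. The paraxial mesoderm list (5 of 7) summed to 192.0 to 305.4 CPM and the neural crest list (4 of 5) to 27.0 to 45.4 CPM. The heart and lateral mesoderm list (4 of 7) summed to 224.8 to 430.5 CPM and the endoderm list (2 of 5) to 25.1 to 59.7 CPM, nearly all of it foxa2. The Kupffer's vesicle and notochord list (2 of 7) summed to 29.8 to 69.7 CPM and the kidney list (2 of 4) to 6.43 to 7.60 CPM. The part of these tissues in the results below was not tested.

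Non-Hox homeobox and Pax genes passed 1 CPM in every library about as often as rows of any kind. At 1 CPM or more in every library stood 53 of the 97 members (54.6%), against 53.7% of all rows. A further 24 passed 1 CPM in some libraries but not in all, against 2319 of all 25122 rows, a larger share for the members. The other 20 stayed under 1 CPM in every library, against 9324 of all rows, a smaller share for the members. A mean of 10 CPM or more was reached by 29 members (29.9%), against 31.8% of all rows. The median of the members' mean levels was 2.49 CPM and that of all rows 2.38 CPM. Together the 97 members took 0.0782%, 0.106%, 0.0715% and 0.107% of the counts of libraries 1 to 4. Their summed level was therefore higher in libraries 2 and 4 (1058 and 1070 CPM) than in libraries 1 and 3 (782.4 and 714.5 CPM).

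**Figure D1:**
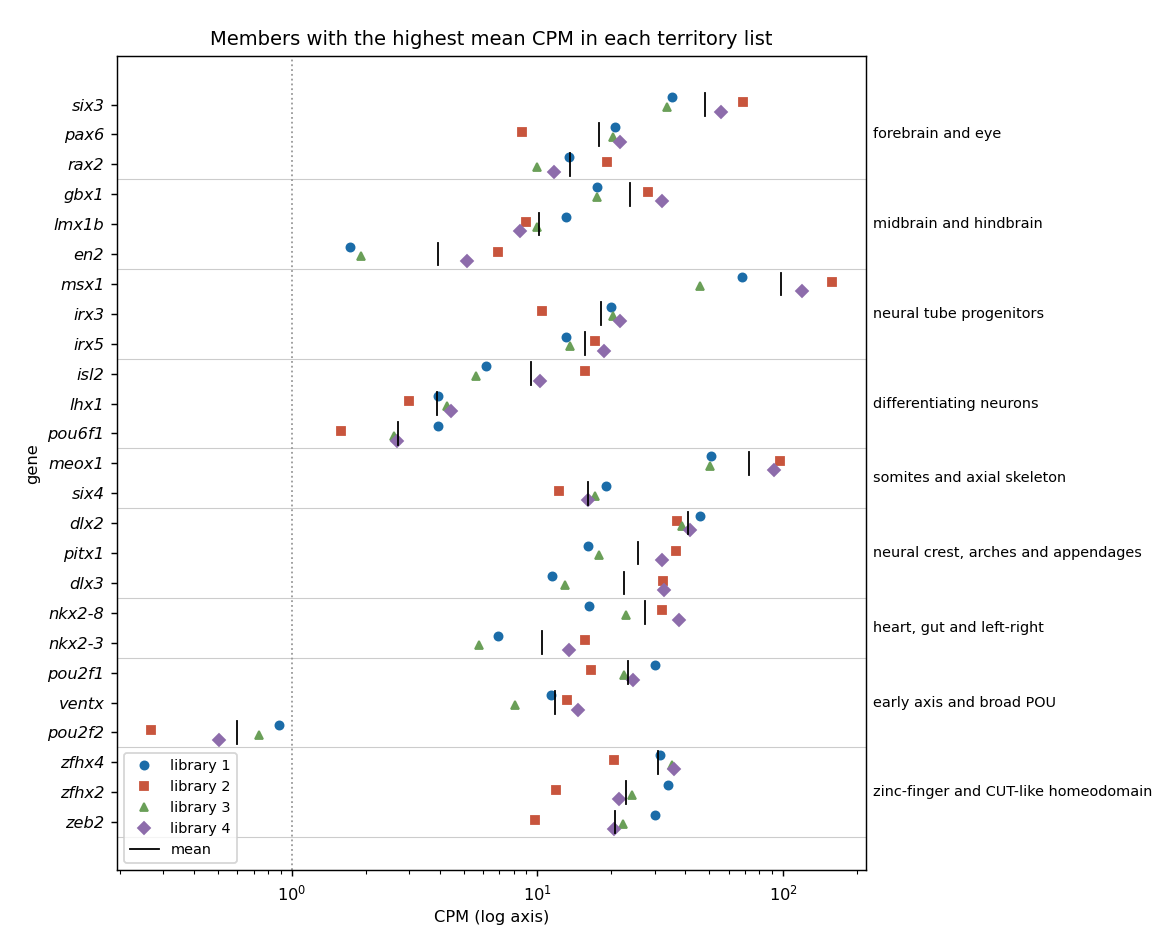
CPM in each of the 4 libraries (1 symbol per library, black bar for the mean, log axis) for 25 of the members with the highest means in the 9 territory lists, at most 3 a list, with the dotted line at 1 CPM. All but 1 of these members lie above 1 CPM in every library, with msx1 reaching 157.8 CPM in library 2, and the exception, pou2f2, lies below the line in all 4.

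Each member was placed in 1 of 9 lists by the embryonic territory or protein class for which it is best known. Exceptions include the pituitary gene pou1f1, counted in the heart, gut and left-right list, and six2, counted in the somite and axial skeleton list. A list is a label and does not measure cell number, since many members act in several tissues.

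The forebrain and eye list held 17 members, of which 10 were at 1 CPM or more in every library, 4 in some and 3 in none. Its summed level was 105.0, 150.2, 102.7 and 143.5 CPM in libraries 1 to 4, with a mean of 125.3 ± 25.0 CPM (SD, n = 4). The gene six3, which specifies the anterior forebrain and the eye field, was read at 35.29, 68.65, 33.63 and 55.63 CPM (48.3 ± 16.9). Libraries 2 and 4 were the high ones for six3, and libraries 1 and 3 differed by less than 2 CPM. The eye field and retina factor rax2 was read at 13.43, 19.25, 9.932 and 11.67 CPM (13.6 ± 4.05), with library 2 highest. Its relative rax, required to form the eye in vertebrates, was read at 1.193, 4.054, 1.503 and 4.527 CPM (2.82 ± 1.71). For rax the values of libraries 2 and 4 lay apart from those of libraries 1 and 3.

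The head gap gene otx1, which marks the forebrain and midbrain, was read at 2.963, 10.63, 5.717 and 14.49 CPM (8.45 ± 5.12). The dorsal telencephalon gene emx2 was read at 3.579, 11.65, 6.69 and 13.55 CPM (8.87 ± 4.56). Both were lowest in library 1 and highest in library 4. The ventral telencephalon genes gsx1 and gsx2 did not share that order. Levels of gsx1 were 8.62, 6.87, 7.397 and 4.225 CPM, and those of gsx2 were 10.81, 6.142, 8.694 and 5.331 CPM, so both were highest in library 1 and lowest in library 4. The ventral eye and optic stalk genes vax1 (1.47 ± 0.351 CPM) and vax2 (2.51 ± 0.474 CPM) passed 1 CPM in every library, vax1 only on library totals and not with TMM or DESeq2 scaling. The early eye and forebrain factor lhx2 crossed the limit, at 0.654, 7.162, 0.678 and 3.185 CPM. It was under 1 CPM in libraries 1 and 3 and over it in libraries 2 and 4. The ventral forebrain and thyroid gene nkx2-1 passed 1 CPM in 3 libraries and fell short in library 2, at 0.631 CPM. The later forebrain genes lhx6 and lhx8 stayed under 1 CPM in every library.

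The midbrain and hindbrain list held 6 members, of which 4 were at 1 CPM or more in every library, and it summed to 35.56, 48.29, 31.24 and 49.46 CPM (41.1 ± 9.12). The hindbrain-side gene gbx1 was read at 17.47, 28.28, 17.51 and 32.19 CPM (23.9 ± 7.53), nearly equal in libraries 1 and 3. The midbrain-hindbrain boundary gene en2 was read at 1.732, 6.919, 1.916 and 5.164 CPM (3.93 ± 2.54). For both genes the values of libraries 2 and 4 lay above those of libraries 1 and 3. The LIM homeobox gene lmx1b, which acts at the same boundary and in serotonergic neurons, was read at 13.05, 9.007, 9.932 and 8.517 CPM (10.1 ± 2.03) and was highest in library 1. At the far end of the list, en1 had 6 counts in library 2 and 0 in the other 3. With independent counts, a count of 0 there allows up to 0.0884 to 0.115 CPM by counting error alone. The excess of even counts is not allowed for in this bound.

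The neural tube progenitor list held 16 members, of which 10 were at 1 CPM or more in every library. It summed to 130.1, 234.4, 118.9 and 223.2 CPM (176.7 ± 60.6), and msx1 alone gave 55.3% of the sum. The gene msx1, a target of BMP signalling in the dorsal neural tube, neural crest and appendages, was read at 68.0, 157.8, 46.03 and 119.2 CPM (97.7 ± 50.4). Its lowest and highest libraries were 3 and 2, and the order of the list's sum follows it. The Iroquois genes prepattern the neural plate. Of them irx5 was read at 13.12, 17.09, 13.62 and 18.74 CPM (15.6 ± 2.72), and irx3 at 19.93, 10.46, 20.25 and 21.59 CPM (18.1 ± 5.12). Library 2 was the single low one for irx3, with the other 3 within 2 CPM of each other. The remaining Iroquois members were irx1 (11.8 ± 5.04 CPM) and irx2 (1.62 ± 0.393 CPM), which passed 1 CPM in every library, and irx4 and irx6, which passed it in library 4 only. The POU gene pou3f4, expressed widely in the neural tube, was read at 9.35 ± 2.90 CPM, the posterior neural gene nkx1-2 at 6.04 ± 2.45 CPM and the ventral neural tube gene nkx6-2 at 8.22 ± 3.19 CPM. All 3 were highest in library 4 and lowest in library 1.

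The differentiating neuron list had 3 of 18 members at 1 CPM or more in every library, 7 in some and 8 in none. It summed to 25.01, 30.13, 25.55 and 29.04 CPM (27.4 ± 2.53). The gene isl2, which acts in motor neurons and primary sensory neurons of zebrafish, was read at 6.157, 15.61, 5.629 and 10.23 CPM (9.41 ± 4.62). The LIM gene lhx1, used in interneurons and the early kidney, was read at 3.925, 2.986, 4.273 and 4.426 CPM (3.90 ± 0.646). The POU gene pou6f1 was read at 3.925, 1.578, 2.593 and 2.682 CPM. Library 2 was highest for isl2 and lowest for lhx1 and pou6f1. The 8 members under 1 CPM in every library included the motor neuron gene mnx1, the sensory neuron genes pou4f2, pou4f3 and tlx3, and barhl1, lhx5 and prox1. The 7 that passed in some libraries were lhx3, lhx4, barhl2, tlx1, onecut2, pou4f1 and prox2. Among these barhl2, a gene of the diencephalon and dorsal interneurons, was over 3 CPM in libraries 2 and 4 and under 1 CPM in the others.

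**Figure D2:**
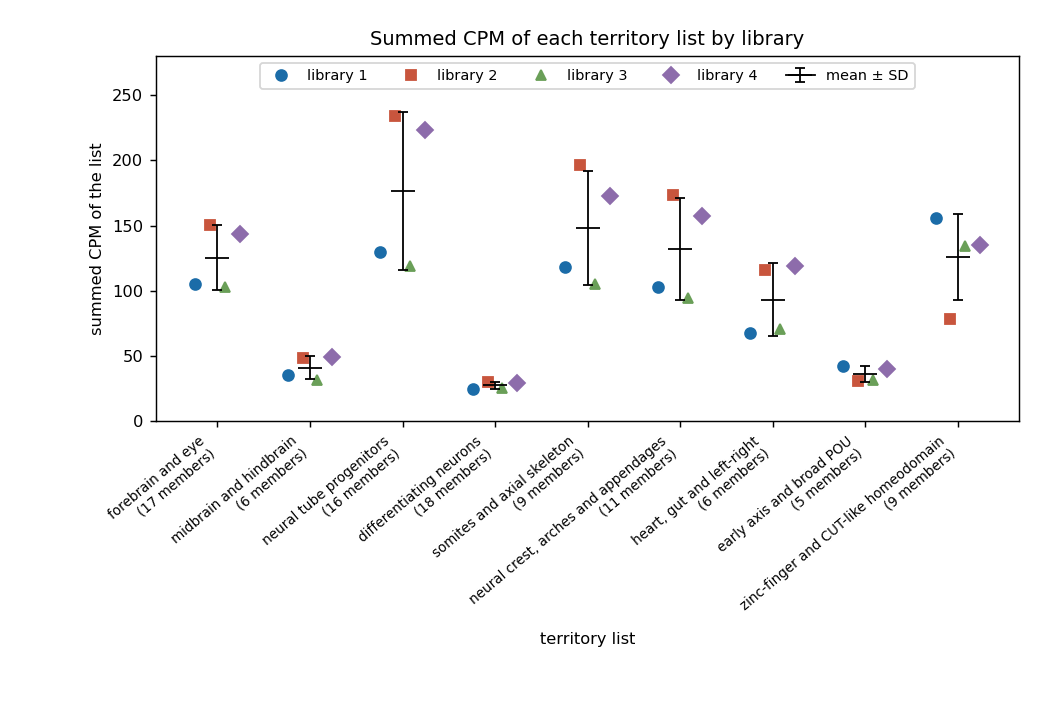
Summed CPM of the members of each territory list in libraries 1 to 4 (symbols), with the mean and SD of the 4 libraries (bar). In 7 of the 9 lists the sums of libraries 2 and 4 are both above those of libraries 1 and 3. Neural tube progenitors have 234.4 and 223.2 against 130.1 and 118.9 CPM, with msx1 giving 55.3% of the sum. A sum can follow 1 gene and does not show that most members share its order. Of members past 1 CPM in every library, 1 of 3 in differentiating neurons and 2 of 4 in midbrain and hindbrain have it. The genes with the largest part of these sums, isl2 and gbx1, are among them. In the zinc-finger and CUT-like list library 2 is lowest at 78.29 CPM.

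The somite and axial skeleton list held 9 members, 6 of them at 1 CPM or more in every library, and summed to 117.9, 196.8, 105.2 and 173.0 CPM (148.2 ± 43.8). The somite gene meox1, which acts in the dermomyotome and sclerotome, gave 49.0% of this sum and was read at 50.84, 97.11, 50.48 and 92.01 CPM (72.6 ± 25.4). Its values in libraries 1 and 3 were nearly equal and well below those of libraries 2 and 4. The gene six4, which acts in muscle precursors and sensory placodes, was read at 18.93, 12.28, 17.09 and 16.03 CPM (16.1 ± 2.80). Library 2 was the lowest for six4. The sclerotome gene nkx3-2 was read at 9.274, 18.06, 8.488 and 16.6 CPM (13.1 ± 4.93), and here, as for meox1, libraries 2 and 4 were above the others. The somite gene uncx passed 1 CPM in libraries 1 and 2 only, and meox2 stayed under 0.1 CPM in all 4 libraries. Beside these values, the paraxial mesoderm markers summed to 208.9, 305.4, 192.0 and 290.9 CPM in libraries 1 to 4.

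The neural crest, arch and appendage list held 11 members, 7 of them at 1 CPM or more in every library, and summed to 102.9, 173.4, 94.6 and 157.6 CPM (132.1 ± 39.2). The gene dlx2, of the forebrain and of the neural crest that fills the pharyngeal arches, was read at 45.99, 36.93, 38.67 and 41.91 CPM (40.9 ± 3.99). It gave 30.9% of the list's sum and did not share its order, with library 1 highest. The gene pitx1, of the oral ectoderm, pituitary and hind appendage, was read at 16.12, 36.61, 17.74 and 32.09 CPM (25.6 ± 10.2). The gene dlx3, of the neural plate border and placodes, was read at 11.51, 32.56, 12.91 and 32.63 CPM (22.4 ± 11.8). The mesenchyme gene prrx1, of limb and head mesenchyme in vertebrates, was read at 6.773, 28.67, 5.806 and 18.61 CPM (15.0 ± 10.8). All 3 were high in libraries 2 and 4, and for prrx1 these libraries were also far from each other. The craniofacial gene alx1, with 2, 73, 10 and 21 counts, had the same high libraries. The neural crest markers summed to 29.86, 27.04, 34.07 and 45.37 CPM, most of it tfap2a. By marker, tfap2a and sox10 were lowest in library 2, foxd3 was lowest in library 3, and snai2 was highest in library 2 at 5.681 CPM.

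The heart, gut and left-right list held 6 members, 4 of them at 1 CPM or more in every library, and summed to 67.38, 115.7, 70.94 and 119.1 CPM (93.3 ± 27.9). The NK2 family gene nkx2-8 was read at 16.24, 32.19, 23.02 and 37.69 CPM (27.3 ± 9.53). The gene nkx2-3, of pharyngeal endoderm and gut mesenchyme, was read at 6.927, 15.68, 5.776 and 13.45 CPM (10.5 ± 4.85). The cardiac progenitor gene nkx2-5 was read at 2.309, 7.963, 2.476 and 7.779 CPM (5.13 ± 3.17). All 3 genes had libraries 2 and 4 above libraries 1 and 3. The markers of the heart and lateral mesoderm list had no common order. The cardiac myosin gene myl7 was at 377.9, 203.9, 399.5 and 229.6 CPM and the mesendoderm gene gata6 at 15.43, 7.526, 17.92 and 15.09 CPM, both lowest in library 2. The cardiac gene tbx20 was also lowest in library 2, at 9.313, 5.317, 11.97 and 12.84 CPM, while gata4, at 0.885, 8.036, 1.12 and 4.996 CPM, was high in libraries 2 and 4. Of the 2 endoderm markers in the table, foxa2, at 25.44, 59.6, 25.08 and 46.31 CPM, had the same order as nkx2-3. The other, foxa1, was at most 0.0486 CPM. The pituitary gene pou1f1 and the pancreatic gene pax4 were near 1 CPM and passed it in 2 libraries each.

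The list of early axis genes and broad POU genes held 5 members, of which 2 were at 1 CPM or more in every library, and summed to 42.48, 30.88, 31.39 and 40.41 CPM (36.3 ± 6.02). The broadly used octamer-binding gene pou2f1 gave 64.4% of it, at 30.05, 16.46, 22.52 and 24.51 CPM (23.4 ± 5.61), lowest in library 2. The gene ventx, whose family represses dorsal fates in fish and frog gastrulae, was read at 11.35, 13.23, 8.075 and 14.65 CPM (11.8 ± 2.84). The organizer gene gsc had few counts, with 2, 24, 2 and 20 counts. The lymphoid and neural octamer gene pou2f2 was read at 0.885, 0.267, 0.737 and 0.503 CPM, and pou2f3 was lower than 0.4 CPM in every library.

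The zinc-finger and CUT-like list gathers large proteins that combine a homeodomain with other DNA-binding domains. It held 9 members, 7 of them at 1 CPM or more in every library, and summed to 155.9, 78.29, 134.1 and 135.1 CPM (125.9 ± 33.3). The gene zfhx4 was read at 31.52, 20.56, 35.34 and 35.81 CPM (30.8 ± 7.10). Its relative zfhx2 was read at 34.02, 11.87, 24.22 and 21.49 CPM (22.9 ± 9.11), and zfhx3 at 22.9, 12.72, 18.86 and 20.92 CPM. These ATBF-type genes are known from neural differentiation, and all 3 were lowest in library 2. The gene zeb2, a repressor of epithelial genes that acts in neural crest and neural plate, was read at 30.02, 9.784, 22.28 and 20.45 CPM (20.6 ± 8.34). Its relative zeb1 was read at 13.35, 9.589, 9.401 and 12.21 CPM (11.1 ± 1.96). Of the 7 members of the list that passed the limit, 6 were lowest in library 2 and none was highest there, beside 36.6% and 34.7% of all rows at the same limit. The exception was zeb1, whose lowest value was in library 3. The marker epcam, an epithelial adhesion gene, was at 244.9, 509.8, 187.0 and 352.0 CPM in the same libraries, highest in library 2. The other enveloping layer marker in the table, grhl3, was at 2.655, 2.549, 4.067 and 3.387 CPM.

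All 7 Pax members had counts in every library, and 5 of them were at 1 CPM or more in every library. The gene pax6, a determinant of eye, forebrain and ventral neural tube, was read at 20.63, 8.643, 20.22 and 21.66 CPM (17.8 ± 6.13). Libraries 1, 3 and 4 lay within 2 CPM of each other and library 2 far below them. The sclerotome gene pax1 was read at 6.658, 13.55, 4.273 and 8.047 CPM (8.13 ± 3.93), and its close relative pax9 at 0.770, 2.913, 1.297 and 1.408 CPM (1.60 ± 0.921). Both pax1 and pax9 were highest in library 2. The dorsal neural tube, neural crest and muscle precursor genes are pax3 and pax7. The row pax3 was read at 1.001, 1.19, 1.886 and 2.75 CPM (1.71 ± 0.793), from 26 to 82 counts, and fell just under 1 CPM in library 1 with TMM or DESeq2 scaling. The row pax7 was read at 2.424, 1.044, 3.035 and 2.515 CPM (2.26 ± 0.851). The midbrain-hindbrain gene pax5 was at 2.694, 1.748, 1.297 and 1.609 CPM (1.84 ± 0.602), and the endocrine pancreas gene pax4 at 0.616, 0.534, 1.002 and 1.207 CPM (0.840 ± 0.319). The 7 Pax members thus had no common library order, with library 2 lowest for pax4, pax6 and pax7 and highest for pax1 and pax9. Rows that carry a Pax symbol only in RefSeq are not among the 7. Of those, pax8 was read at 4.541, 6.967, 5.187 and 5.499 CPM and pax2a at 1.154, 0.534, 1.297 and 1.006 CPM, and pax3a is given below.

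**Figure D3:**
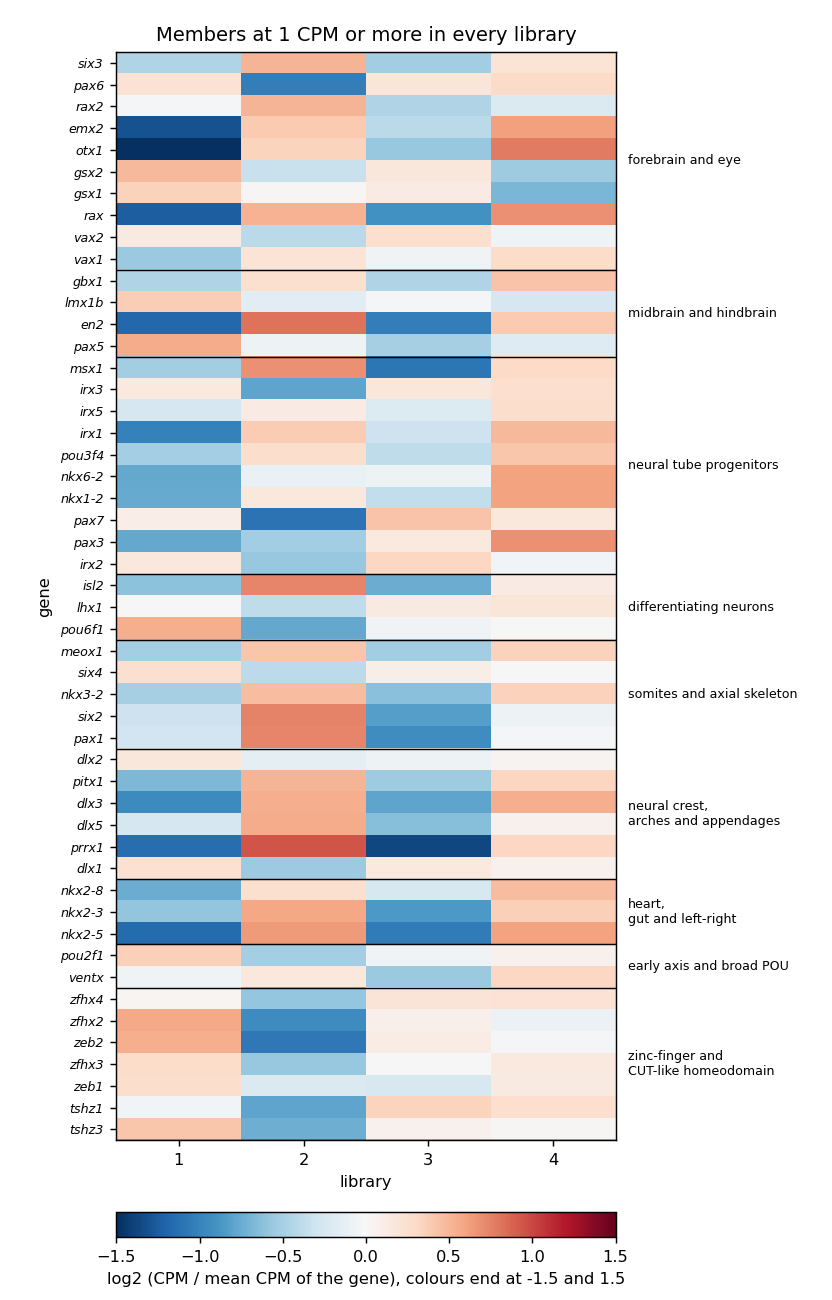
Level of 50 of the 53 members at 1 CPM or more in every library, in each of the 4 libraries, as the log2 ratio to the gene's mean over the 4 libraries (colour, ending at 1.5 in either direction), grouped by territory list. Genes such as nkx2-3, nkx2-5, nkx2-8, meox1, dlx3 and prrx1 are above their mean in libraries 2 and 4, while irx3, pax6 and the zfhx and zeb genes are below it in library 2.

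The spread between pools is given beside that of all rows. Among members at 1 CPM or more in every library, the highest library was at least 2 times the lowest for 34 of 53 (64.2%), against 36.1% of all rows that passed the same limit. Their median coefficient of variation was 34.9% against 25.1% for all rows, and the median ratio of the highest to the lowest library was 2.17 against 1.77. Leaving out a library cannot widen the range of a gene, so lower shares follow in part from the rule. Without library 2, 19 of 56 members (33.9%) had at least a 2-fold range, against 12.9% of rows. Leaving out library 1, 3 or 4 gave 48.2%, 53.7% and 50.9% of members against 28.7%, 25.8% and 32.8% of rows. Among members at 1 CPM or more in every library, the 5 with the widest spread were prrx1 (coefficient of variation 72.4%), en2 (64.6%), nkx2-5 (61.7%), rax (60.8%) and otx1 (60.6%). Each of them was higher in libraries 2 and 4 than in libraries 1 and 3. At the narrow end, dlx2 had a coefficient of variation of 9.76%. These pools spanned 15 to 22 somites, and the exact stage of each pool is not given in the labels.

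**Figure D4:**
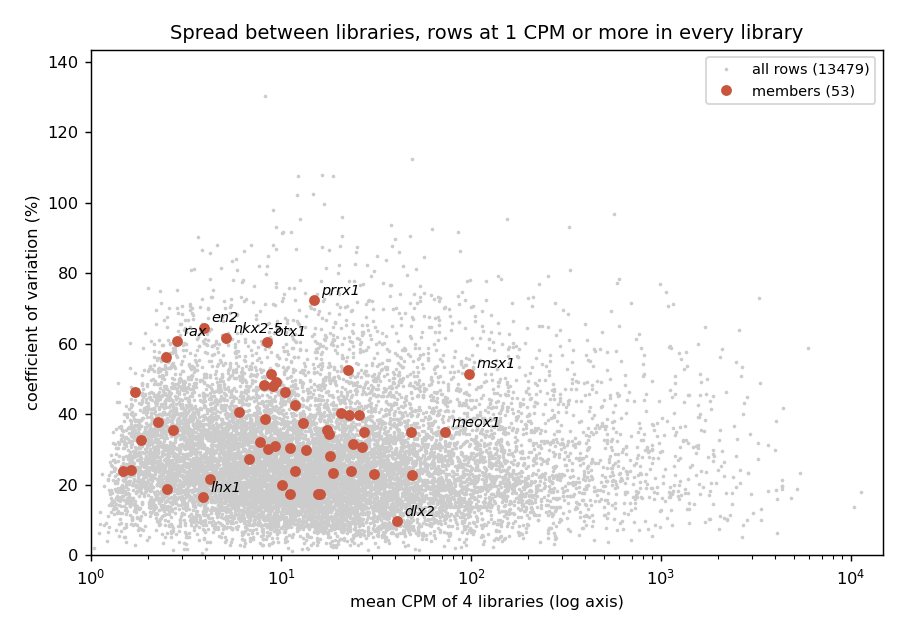
Coefficient of variation over the 4 libraries (%) against mean CPM (log axis) for the 13479 rows at 1 CPM or more in every library (grey) and the 53 members among them (red). The members reach from dlx2 at 9.76% to prrx1 at 72.4%, with a median of 34.9% against 25.1% for all rows.

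The library order seen in the sums of most lists was counted over the members after their values were seen. No label separates libraries 2 and 4 from libraries 1 and 3. Both of libraries 2 and 4 were above both of the others for 28 of 53 members (52.8%), against 28.8% of rows. The reverse order was found for 10 members (18.9%), against 21.8% of rows. With TMM or DESeq2 scaling the reverse order was found for 13 or 14 members, and the share of all rows is not given. By list, libraries 2 and 4 were above for all 4 heart, gut and left-right members that passed the limit and for 5 of 6 somite members. The same held for 5 of 7 neural crest, arch and appendage members and for 0 of 7 zinc-finger and CUT-like members. It held for 5 of 10 forebrain and eye, 5 of 10 neural tube and 2 of 4 midbrain and hindbrain members. For differentiating neurons it was 1 of 3, and for the early axis and broad POU list 1 of 2. Members were highest in libraries 1, 2 and 4 in 26.4%, 32.1% and 34.0% of cases, against 33.1%, 34.7% and 18.2% of rows. In library 3, 4 of 53 members and 1889 of 13479 rows were highest. Members were lowest in libraries 1 to 4 in 30.2%, 32.1%, 32.1% and 5.66% of cases, against 14.2%, 36.6%, 38.7% and 10.5% of rows. For library 2 both shares were near those of all rows.

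A fish genome often keeps duplicate copies of these genes, and the row names hide some of them. A further 49 rows carry a numbered identifier in the count table and a symbol of the same families in RefSeq, of which 24 were at 1 CPM or more in every library. For 14 members such a row has the same gene stem, and these pairs were taken as candidate copies by name. Both rows of the pair passed the limit in 6 pairs, the member alone in 1, the other row alone in 2 and neither in 5. Values of the pairs are given side by side and are not compared in level. The row pax3, given above, passed the limit, and the row RefSeq names pax3a was read at 26.82, 18.69, 26.11 and 26.39 CPM (24.5 ± 3.89). The row en1 was almost empty, while en1b was read at 4.849, 14.71, 7.544 and 14.42 CPM (10.4 ± 4.96), with libraries 2 and 4 high as for en2. The row pou3f3, of a neural progenitor gene, was under 1 CPM in every library, while pou3f3b was read at 24.78, 8.206, 30.68 and 27.93 CPM (22.9 ± 10.1), low in library 2 as pax6 was. For zeb2, which passed the limit, the copy did not, with zeb2a at 0.166 ± 0.181 CPM.

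Where both rows of a pair passed the limit, the log2 ratio of member to copy is given by library. Its size and sign depend on the lengths of both rows. Its change between libraries does not, provided that reads cover the genes alike in every library, which was not tested. For otx1 and the second row that RefSeq also names otx1, the log2 ratio was -1.66, 0.50, -1.42 and -0.24 in libraries 1 to 4, so it was highest in library 2 and lowest in library 1. For six3 and six3b it was 1.94, 1.48, 1.65 and 1.05, lowest in library 4. For tshz3 and tshz3b it was 0.71, 1.28, 0.79 and 0.75, with library 2 apart from the rest. For zeb1 and zeb1a it was -0.25, 0.83, -0.80 and -0.24, again highest in library 2. For irx1 and irx1b it was -0.028, 0.989, 0.145 and 0.398, also highest in library 2. For pax3 and pax3a it was -4.69, -3.95, -3.77 and -3.25, lowest in library 1 and highest in library 4. Only reads that align to 1 place were counted, so stretches that copies share are missing from both rows, and these levels are uncertain to that extent.

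**Figure D5:**
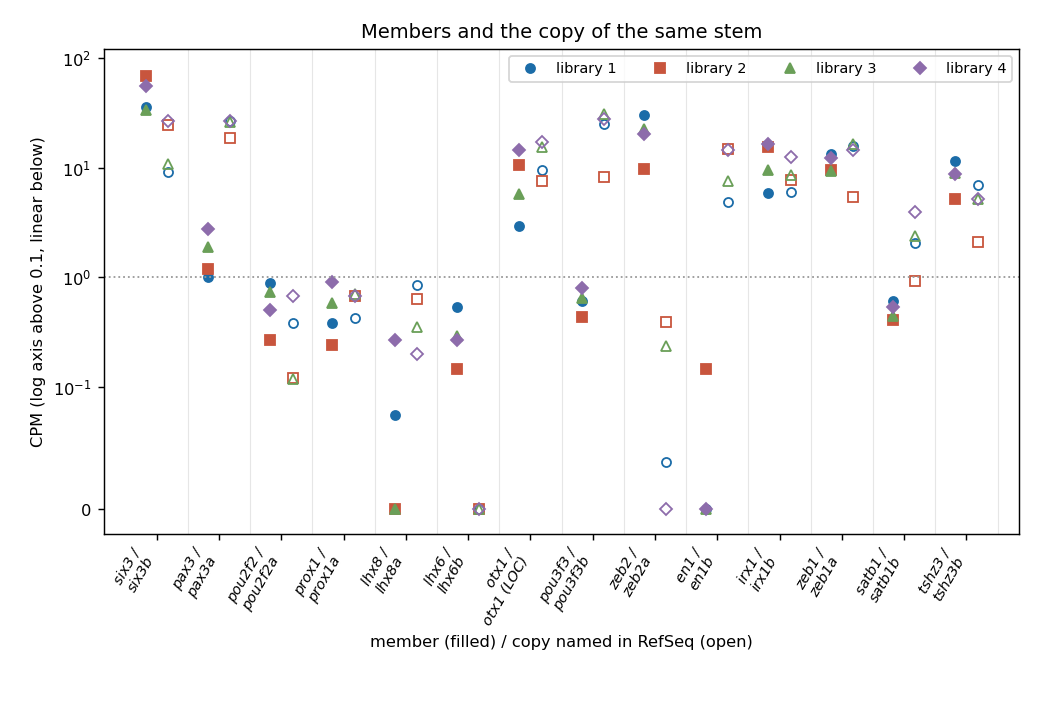
CPM of the member row and of the RefSeq-named copy in each of the 4 libraries (1 symbol per library, log axis above 0.1 CPM and linear below, dotted line at 1 CPM) for the 14 candidate copy pairs, with members filled and copies open. The copies en1b and pou3f3b pass 1 CPM in every library where en1 and pou3f3 do not, and zeb2a stays under 1 CPM where zeb2 passes.

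Homeobox genes of the Dlx, Irx, Nkx and sine oculis families often sit side by side in vertebrate genomes. In the RefSeq gene order, 8 adjacent pairs of these families included a member and 6 had members on both sides. In the pair dlx1 and dlx2, dlx1 was at 4.964, 2.913, 4.686 and 4.426 CPM, and both were highest in library 1 and lowest in library 2. In the other Dlx pair, dlx5 was read at 14.66, 25.66, 11.2 and 18.34 CPM (17.5 ± 6.19) and dlx6 at 0.808, 2.161, 1.031 and 2.414 CPM (1.60 ± 0.802), and both were above their mean in libraries 2 and 4. Their highest and lowest libraries differed. The pair six3 and six2 shared its library order, with six2, a mesenchymal and kidney progenitor gene in mammals, at 7.312, 15.2, 5.098 and 8.584 CPM. The gene irx6 was at 0.847, 0.388, 0.825 and 1.241 CPM beside irx5, with library 2 lowest for irx6 and above libraries 1 and 3 for irx5. The member dlx3 lay beside the row named dlx4b, another border and placode gene, at 18.13, 41.34, 18.33 and 36.88 CPM, with the same high libraries as dlx3. The member nkx2-3 lay beside nkx3.3, at 1.385, 2.064, 1.326 and 2.649 CPM.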

How the data were processed

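The authors deposited whole-number read counts per gene without normalization. Their low-input SMART-Seq v4 libraries do not mark strand, so overlapping antisense genes cannot be told apart. Per the labels and the study's methods, reads were trimmed with Trim Galore 0.4.5, aligned with STAR 2.7.1a, restricted to single-locus alignments with SAMtools 1.5 and counted with featureCounts of Subread 2.0.1.

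From the counts, CPM on library totals were computed with Python 3.11.15, pandas 2.3.3 and numpy 2.4.6, and drawn with matplotlib 3.10.9. Columns were matched to samples by name. The limit was 1 CPM in every library. The biological coefficient of variation came from edgeR 4.0.16 in R 4.3.3 (intercept only). On simulated counts of 13687 genes for the spread between the 4 libraries, it gave 0.261 for a true 0.25 but 0.321 for a true 0.75 (0.68 gene-wise). It thus understated wide spread there, where all genes but 200 had the same true spread. How far it does so in these data was not tested. Alternatives used TMM, DESeq2 1.42.0 size factors, limits of 0.5 CPM, 5 CPM or 10 counts, and each library left out. With 1 group no test between conditions was made, and n counts pools, which the labels call replicates without saying more. Copy ratios used a pseudocount of 1 count.

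Symbols and gene order came from RefSeq (assembly NfurGRZ-RIMD1), which is not the build counted, so no coordinates are given. For 80 members a RefSeq place was found. Named were all Pax members, the 3 members of each list with the highest mean CPM, and adjacent Dlx, Irx, Nkx and sine oculis members. The 5 with the widest spread among members past the limit in every library were also named. Others, the copies included, were chosen after their values were seen. Members and lists were chosen with earlier results of these data known. A few members are counted in the totals but not reported here by name.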

Additional observations from a re-analysis of the deposited data

Results flagged for a closer look

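Of 54 values (levels of named genes, list sums and library totals) screened for a single library far from the other 3, 2 stood out, both low in library 2. The level of irx3 in library 2 was 10.46 CPM, against 19.93 to 21.59 CPM in the other libraries, so the gap was 0.851 of the whole range. The level of pax6 in library 2 was 8.643 CPM, against 20.22 to 21.66 CPM elsewhere, a gap of 0.889 of the range. Chance marks about 1 in 20 such groups.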

How the results depend on the processing

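The number of members at the limit in every library was 53 at 1 CPM, 34 at 5 CPM and 80 at 10 counts, and 53 to 56 with a library left out. It was 51 with TMM and with DESeq2 size factors, since pax3 and vax1, each at 1.001 CPM in library 1, fell just under the limit. At 5 CPM the forebrain and eye list kept 4 members, the midbrain and hindbrain list 2, the neural tube list 5 and the differentiating neuron list 1. The neuron list held 10 at 0.5 CPM, and 3 to 5 with a library left out (5 without library 2). No member had 0 counts in every library, against 4.22% of all rows. The number was 0 to 1 with a library left out (en1, without library 2) and 1 with the RefSeq-named rows added (lhx6b). The count of members with at least a 2-fold range, 34, was 19 to 29 with a library left out. Leaving out a library cannot widen the range of a gene, so a lower count was largely fixed in advance. These range and order counts and their alternatives were added after seeing the data. TMM and DESeq2 size factors gave 32 for the range and 27 under both for libraries 2 and 4 above. For the reverse order they gave 13 and 14, against 10. The shares of all rows are not given for these scalings or for the limits of 5 CPM and 10 counts. Whether members stand above or below all rows there is therefore not shown. The median biological coefficient of variation of the members was 0.337, against 0.305 for all rows fitted. With a library left out it ranged from 0.292 (without library 2) to 0.373 (without library 4), against 0.237 and 0.351 for all rows. It was 0.379 against 0.248 gene-wise and 0.396 against 0.366 without a filter on low counts. The mean CPM of the 43 named genes moved by less than 1 SD in all 258 alternative values. Leaving out 1 of 4 libraries cannot move a mean by 1 SD, so that part of the check could not fail. No paired analysis was possible because the comparison has 1 group. The planned test of a and b copies was not run, since no members form such a pair by name.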
